A study of Mus musculus with 16 samples.

Results

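The RNA of β cells from old mice was described by itself, as read counts per gene in 3 pools of sorted cells. These pools are 3 of the 16 samples of a series on young and old mouse β cells. The members were the 22869 genes of the deposited count table, each represented by the 1 of its transcripts with the highest total count, out of 28644 transcripts. Of these genes, 18555 had at least 1 count in any pool. The mice were of the MIP-GFP/Bl6 line, in which green fluorescent protein is driven by the insulin promoter, and live fluorescent β cells were sorted by flow cytometry, so the selected cells are those in which that promoter was active. The pools were labelled 15, 16 and 17 months and are called pools 1, 2 and 3 here, and the design text gives 5 to 10 mice for an RNA library. Libraries were made with a TruSeq RNA kit from 200 ng of total RNA. Each pool carries its own age in months, so pool and age cannot be told apart, and p-values measure only the spread between these 3 pools.

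A β cell makes, folds and stores insulin and releases it when glucose is metabolised. Proinsulin enters the endoplasmic reticulum, is folded there with the help of chaperones and oxidases, travels in coated vesicles to the Golgi and is cut to insulin in acidifying granules by prohormone convertases and carboxypeptidase E. Glucose enters through a transporter, is phosphorylated and is then oxidised in mitochondria, and the rise in ATP closes a potassium channel, which opens calcium channels and triggers fusion of granules with the membrane.

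The pools held 26670732, 33563552 and 23560053 gene counts, and 16212, 16918 and 15858 genes had a count. Levels are given in CPM, counts scaled to the same total in every pool, and 3 counts, the most that a count of 0 allows at counting error alone, correspond to 0.112, 0.0894 and 0.127 CPM. Over 13508 genes with at least 10 counts in at least 2 pools, log2 CPM of pools 1 and 2 correlated at 0.960, pools 1 and 3 at 0.957 and pools 2 and 3 at 0.949 (Pearson's r across genes, which are not independent replicates). The median gene stood at -0.16 on the log2 scale in pool 3 over the mean of the other pools on column totals, and at -0.01 with TMM factors, a scaling by the trimmed mean of gene ratios.

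Insulin RNA led the transcriptome of every old pool. Ins1, which encodes 1 of the insulins of the mouse, was counted at 230862 CPM in pool 1, 227248 in pool 2 and 283341 in pool 3. Ins2, the other insulin gene, was counted at 73072, 76845 and 88911 CPM. Iapp, which encodes islet amyloid polypeptide and is stored in the same granules, stood at 19167, 20138 and 12196 CPM. Pool 3 was the highest for both insulins and the lowest for Iapp. Together Ins1, Ins2 and Iapp held 34.4% ± 3.51 of all gene counts (SD, n = 3). Ins1 lies at chr19:52338813-52339948 on the plus strand and Ins2 at chr7:149864561-149865613 on the minus strand (mm9). The pair of insulin genes is similar in sequence, and the sources used here do not say how reads that fit more than 1 place were counted, so the split between them is uncertain.

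After the insulin genes came Malat1, a nuclear long non-coding RNA, at 19705, 12836 and 20498 CPM, with pool 2 the lowest. The granins followed, acidic proteins that aggregate in the granule. Chgb was counted at 6681, 6905 and 7699 CPM, Chga at 5500, 4779 and 6227 CPM and Scg2 at 3092, 3683 and 3136 CPM. G6pc2, the islet glucose-6-phosphatase, was counted at 4894, 6030 and 2693 CPM, so pool 3 was below both other pools. The remaining genes of the top 25 by CPM were Hsp90b1 (2843 CPM on average), Pcsk2 (2159), Cpe (2085), Prlr (1815), Ece1 (1800), Hspa5 (1784), Maged1 (1759), Ero1lb (1732), Peg3 (1642), Atp2a2 (1619), Disp2 (1466), Srrm2 (1399), Pclo (1363), Enpp2 (1283), Scg3 (1212), Acly (1205) and Gcg (1160), in mean CPM. Hsp90b1 and Hspa5 are chaperones of the endoplasmic reticulum, Atp2a2 encodes the SERCA2 calcium pump of that organelle, and Acly makes acetyl-CoA from citrate in the cytosol. Of these 25 genes, 7 were granule cargo, 3 were of the list for processing and packaging of prohormones and 2 were chaperones of the endoplasmic reticulum.

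**Figure D1:**
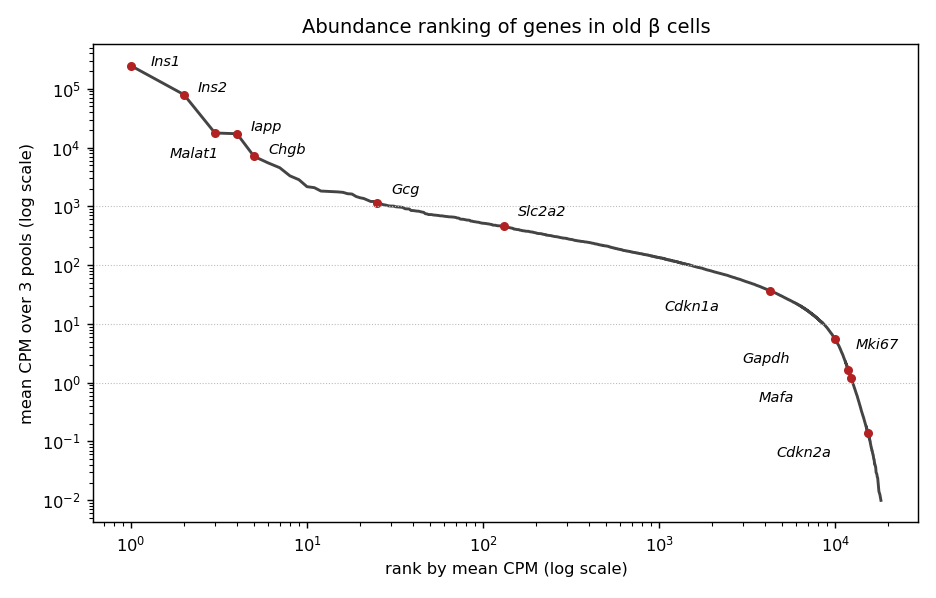
Mean CPM over the 3 old pools (log scale) of each gene against its rank by mean CPM (log scale), as 1 line. Selected genes from high to low levels are named. Ins1 stands at a mean of 247150 CPM, and the line drops steeply within the first 10 ranks.

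The counts were concentrated in few genes. Ins1 alone held 24.7% ± 3.1 of counts, the top 10 genes 38.7% ± 3.7, the top 100 46.3% ± 3.4 and the top 1000 66.7% ± 2.1 (SD, n = 3). It took 185 genes to reach 50% of counts on average, and 231, 235 and 91 genes in pools 1, 2 and 3, so pool 3 was the most concentrated. In level classes by mean CPM, 31 genes reached 1000 CPM, 1459 lay at 100 to 1000, 7077 at 10 to 100, 3988 at 1 to 10 and 6000 under 1, while 4314 had no count. The 31 genes of the highest class held 39.7, 39.4 and 45.8% of counts in pools 1, 2 and 3. The classes from 100 to 1000 and from 10 to 100 CPM held 30.7% ± 1.9 and 25.7% ± 1.6. A level of at least 1 CPM in every pool was reached by 11571 genes.

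CPM counts reads, and a longer transcript gives more of them, so levels between genes were also compared per length. Dividing counts by a relative transcript length and scaling each pool's sum to that of CPM gave a per-length level for 14859 genes. On that scale Ins1 stood at 380917 ± 32767, Ins2 at 221213 ± 13548 and Iapp at 39082 ± 11073 (SD, n = 3). Chga came next at 4591 ± 481, then Chgb at 4075 ± 135, Malat1 at 3972 ± 908, G6pc2 at 3578 ± 1420, Scg2 at 2092 ± 242, Rpl41 at 1959 ± 121 and Gcg at 1663 ± 577 per-length units. Of the neighbours from Chga to G6pc2, Chga stood above Chgb and Malat1 in every pool. In pool 2 Chga and Chgb were close, at 4050 and 4026 per-length units. The other orders among Chga, Chgb, Malat1 and G6pc2 changed between pools, with G6pc2 at 3951, 4774 and 2008. Rpl41, a very short ribosomal protein, ranked 9 per length and 86 by CPM, at 560 mean CPM. Of the top 100 genes, 45 by CPM and 54 per length belonged to 1 of the 42 functional and marker lists used here.

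Granule cargo was the largest of the 42 lists at 36.3% ± 3.64 of counts. Of its 18 genes, 7 reached 1000 CPM, 4 lay at 100 to 1000 and 4 had no count, namely Adcyap1, Cck, Gal and Npw. Ucn3, a peptide of the corticotropin-releasing family made by mature mouse β cells, was counted at 771, 681 and 1064 CPM. Scg3, a granin that binds Chga, was counted at 1204, 1251 and 1181 CPM. Nucb2 stood at 442, 435 and 638 CPM, whereas Vgf, a granin-like neuropeptide precursor, stood at 2.92, 6.58 and 7.13 CPM. The cargo list thus spanned the full range of levels, from the most counted gene of the table to genes with no count.

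The genes that process and package insulin were all well counted but ranged widely in level. All 15 genes of the list for prohormone processing and packaging reached at least 10 CPM and together held 0.949% ± 0.0713 of counts. Of them, 5 lay at 10 to 100, 7 at 100 to 1000 and 3 at 1000 CPM and more. Pcsk2, the convertase that cuts between C-peptide and A chain, was counted at 2087, 2165 and 2225 CPM. Cpe, the carboxypeptidase that trims the cut ends, was counted at 2289, 2041 and 1925 CPM. Pcsk1, the convertase that cuts between B chain and C-peptide, was counted at 485, 546 and 399 CPM. On the per-length scale Cpe stood at 1569, Pcsk2 at 716 and Pcsk1 at 299, so the order of Cpe and Pcsk2 differed between scales. Slc30a8, the zinc transporter of the granule, was counted at 811, 774 and 524 CPM and Ero1lb, the oxidase of the endoplasmic reticulum in islets, at 1961, 2024 and 1212 CPM. Both were lowest in pool 3. The granule membrane proteins Ptprn2 and Ptprn were counted at 714, 722 and 737 CPM and at 620, 584 and 819 CPM.

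Of the glucose-sensing genes, 5 of 10 reached at least 10 CPM and the other 5 lay under 1 CPM. Slc2a2, the GLUT2 transporter, was counted at 544, 436 and 385 CPM, lowest in pool 3. The low-Km hexokinases stood far lower, with Hk1 at 4, 6 and 16 counts, Hk2 at a mean of 0.149 CPM and Hk3 at 0.811 CPM. Per length, G6pc2 at 3578 stood above Slc2a2 at 279. The share of the list moved with G6pc2 and was 0.556, 0.658 and 0.321% in the 3 pools. Glycolysis was led by Pkm2 (279 CPM), Pfkfb2 (255) and Aldoa (252), in mean CPM. Gapdh, a gene with many near-identical copies in the genome, was listed at only 3.15, 3.43 and 9.93 CPM, so reads that fit several places may be missing from it. Ldha, which turns pyruvate into lactate, was counted at 0.532 mean CPM, and Slc16a1, a carrier of both acids across the membrane, had 0 counts in all pools.

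Mitochondrial pathways were expressed at middle levels. Of the citrate cycle and shuttle list 35 of 38 genes reached 10 CPM, of complex I 33 of 37, of complexes III and IV 18 of 21, and of ATP synthase 13 of 15. The enzymes Ogdh (256 CPM), Sdha (248) and Mdh1 (210) led the citrate cycle and Cox7a2l (185) complexes III and IV, in mean CPM. Atp5b, the catalytic β subunit of ATP synthase, was counted at 608, 887 and 474 CPM, and Atp5a1, the α subunit, at 419, 482 and 316 CPM. Both were highest in pool 2 and lowest in pool 3. The 4 lists held 0.253, 0.154, 0.119 and 0.171% of counts.

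The channels of electrical activity held 0.312% ± 0.0172 of counts. Abcc8, the sulfonylurea receptor of the ATP-sensitive potassium channel, was counted at 963, 1085 and 1300 CPM, and its pore subunit Kcnj11 at 85.7, 114 and 103 CPM. Per length they stood at 353 and 50.9. The sodium channel Scn9a was counted at 393, 355 and 313 CPM and the calcium channel Cacna1d at 213, 174 and 252 CPM. Trpm5, a calcium-activated cation channel, was counted at 167, 178 and 168 CPM. Of the 26 listed channels, 20 reached 10 CPM and 4 stayed under 1 CPM, namely Cacna1e, Cacna1h, Kcnk3 and Kcnip3.

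The machinery of granule fusion was present in nearly every class of its parts, and 28 of 33 genes reached 10 CPM. Syt13, an atypical synaptotagmin, was counted at 954, 1012 and 746 CPM. Cplx2, a complexin that clamps the fusion complex, was counted at 377, 440 and 413 CPM and Snap25, a core fusion protein, at 346, 312 and 301 CPM. Syt7, a calcium sensor of slow release, was counted at 199, 230 and 302 CPM. Syt9 stood at 9, 13.1 and 10.2 CPM and Stx1a, the syntaxin of the plasma membrane, at 2.81, 5.21 and 3.18 CPM. Cplx1 had no count and Rab27b a mean of 0.148 CPM. Of paralogous genes, one was thus counted at a high level and another at or near 0, as for Cplx2 with Cplx1 and for Rab27a (133 mean CPM) with Rab27b.

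Among 26 receptors in the table, 16 reached 10 CPM. Prlr, the prolactin receptor through which β cells grow in pregnancy, was counted at 2198, 1838 and 1409 CPM, and Glp1r, the receptor of the incretin GLP-1, at 1140, 905 and 1168 CPM. Per length Glp1r stood at 1137 and Prlr at 278, so their order turned with transcript length. Igf1r and Ghr were counted at 307 and 286 mean CPM, against 139 mean CPM for the insulin receptor gene Insr. Gipr, the receptor of the incretin GIP, was counted at 46.6, 46.1 and 80.6 CPM. Adra2c, Sstr5 and Mc4r had no count.

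Of 30 transcription factors of the β-cell lineage, 25 reached 10 CPM and 15 lay between 100 and 1000 CPM. Xbp1, which drives the secretory programme, led with 409, 491 and 410 CPM. Neurod1 was counted at 216, 223 and 207 CPM, Pdx1 at 121, 104 and 118 CPM and Nkx6-1 at 79.5, 83.8 and 100 CPM. Their values differed little between pools, with coefficients of variation of 3.71, 7.81 and 12.5%. Mafa, a factor of mature β cells, was listed at only 1.39, 1.04 and 1.15 CPM. Per length Mafa stood at 1.76 and Pdx1 at 140. Mlxipl, the glucose-responsive factor ChREBP, was counted at 231, 185 and 322 CPM and Rfx3 at 293, 233 and 186 CPM. Pax4, Foxa1 and Lmx1a stood under 0.1 CPM on average.

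Outside granule cargo and non-coding RNA, the largest list was in the early secretory pathway. The 23 chaperones and oxidoreductases of the endoplasmic reticulum held 1.13% ± 0.113 of counts and all reached 10 CPM. Hsp90b1, the GRP94 chaperone, was counted at 2863, 3257 and 2409 CPM. Hspa5, the BiP chaperone that binds unfolded chains, was counted at 1559, 2159 and 1633 CPM. Hyou1, its exchange factor, was counted at 958, 895 and 1177 CPM. P4hb, a disulfide isomerase, was counted at 775, 853 and 768 CPM. Per length the order was Hsp90b1 (1625), Hspa5 (1108), Calr (556), P4hb (495) and Hyou1 (357).

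Translocation, glycosylation and signal cleavage genes held 0.604, 0.719 and 0.509% of counts, led by Ssr3 (506, 650 and 375 CPM) and Spcs3 (578, 538 and 414 CPM). Of the 30 tested genes of that list, 23 were highest in pool 2 and 22 lowest in pool 3 with TMM factors, and 25 and 24 on column totals. Over all 13508 tested genes, 4553 were highest in pool 2 and 4892 lowest in pool 3 with TMM factors. On column totals these numbers were 5067 and 6236. Quality control and the unfolded-protein response, led by Xbp1, Atf4 (360 mean CPM), Sel1l (337) and Atf6 (296), were highest in pool 2 for 15 of 23 tested genes. Coat and cargo proteins were led by Copa (635), Lman1 (519) and Sec31a (479), in mean CPM, and held 0.653% ± 0.0687 of counts. Of 17 subunits of the proton pump that acidifies granules, led by Atp6ap1 (298 mean CPM), 13 were lowest in pool 3 with TMM factors and 14 on column totals. None of the tested genes of these lists other than Ppp1r15a was called in the test of variation against the abundance trend.

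**Figure D2:**
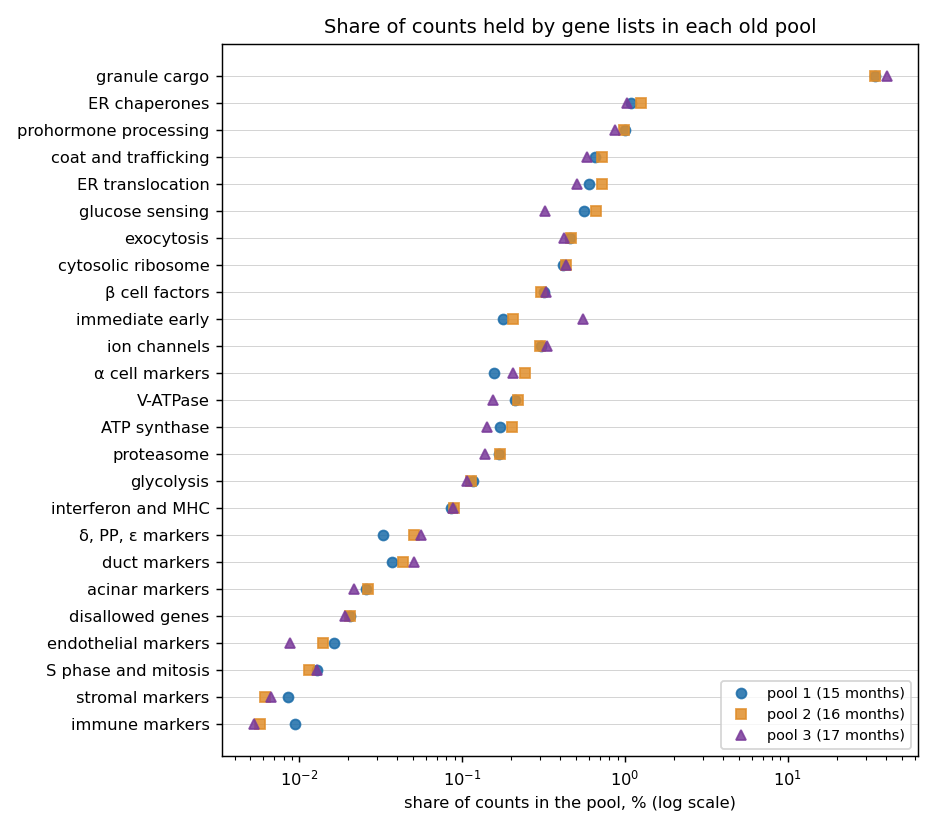
Share of all gene counts (%, log scale) held by selected gene lists and by cytosolic ribosomal proteins, with 1 point per old pool. Granule cargo holds over 34% in every pool, 8 of the 42 lists hold at least 0.5% on average, and immediate-early genes show pool 3 at 0.554% against 0.179 and 0.204%.

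Housekeeping pathways followed with smaller shares. Cytosolic ribosomal proteins held 0.43% ± 0.00979 of counts over 87 genes, led by Rpl41 (560 CPM) and Rpl4 (468), in mean CPM. Their median was 21.6 CPM, and 26 of them lay at 1 to 10 CPM. As for Gapdh, reads that fit several places may be missing from these genes, so their share is uncertain. Translation factors held 0.51% ± 0.0412 over 27 genes, led by Eif4g2 (1015), Eef1a1 (679) and Eef2 (663). Of the proteasome 33 of 34 subunits reached 10 CPM, with Psmb4 (115) the only 1 over 100 CPM. Lysosome and autophagy genes were led by Lamp1 (598), Gaa (330) and Psap (314). In the antioxidant list Txnip, a thioredoxin-binding protein induced by glucose, was counted at 665, 463 and 681 CPM. Cat, the catalase, was counted at 10.2, 6.73 and 3.95 CPM, highest in pool 1. Fatty acid and sterol synthesis was led by Acly, at 1163, 1116 and 1336 CPM, whereas Fasn, the fatty acid synthase, was counted at 85.1, 84.3 and 89.3 CPM, and per length the values were 427 and 13.6.

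Genes of insulin signalling and of the growth cycle were next. All 24 genes of the insulin and growth pathway list reached 10 CPM, among them Igf1r (307 CPM) and Gsk3b (257), in mean CPM. Irs2, an adaptor of the insulin receptor, was counted at 88.7, 86.6 and 186 CPM and did not pass the test of variation (adjusted p = 0.507, edgeR). Ccnd2, the main D-type cyclin of β cells, was counted at 1021, 973 and 913 CPM. Of 37 genes of replication and mitosis, none reached 100 CPM, 12 lay under 1 CPM and the list held 0.0124% of counts. Mki67, a marker of cycling cells, was counted at 1.91, 1.22 and 1.87 CPM and Top2a at 1.61, 1.34 and 1.78 CPM.

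Inhibitors of cyclin-dependent kinases differed in level. Cdkn1a, the p21 gene, was counted at 37.2, 49.6 and 22.5 CPM, Cdkn1b at 17.4, 18 and 18.7 CPM and Cdkn2b at 10.2, 9.95 and 11.5 CPM. Cdkn2a, the locus of p16 that is used as a marker of aging in islets, had 9, 1 and 1 counts in pools 1, 2 and 3. The counts of pools 2 and 3 lie under the 3 counts that a count of 0 allows, and that of pool 1 above it. The secreted factors Il6 and Cxcl1, often measured in senescent cells, had no count.

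Some genes are kept low in β cells in comparison with most tissues, and they are called disallowed. Of 20 such genes, 10 lay under 1 CPM and 1, Slc16a1, had no count. The exception was Dnmt3a, a DNA methyltransferase, at 171, 176 and 165 CPM. The next was Oat, an aminotransferase, at 8.7, 5.04 and 8.79 CPM. The whole list held 0.0203, 0.0206 and 0.0192% of counts. Among symbol families, 24 of 40 Hox genes had no count and the other 16 lay under 1 CPM. Of 1123 olfactory receptors 866 had no count and 4 lay between 1 and 10 CPM, the highest being Olfr330 at 4.16, 15.7 and 4.46 CPM. In contrast, 35 of 59 clustered protocadherins lay between 100 and 1000 CPM, led by Pcdhga5 at 195, 180 and 182 CPM. Transcripts of that cluster share exons, so a read in a shared exon may have been counted for many of them. Of 337 solute carriers 135 reached 10 CPM, led after Slc30a8 and Slc2a2 by Slc7a14 (379 CPM), Slc7a8 (344) and Slc6a6 (322), in mean CPM.

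Non-coding and imprinted genes held 2.27% ± 0.454 of counts, most of it Malat1. Peg3, a paternally expressed zinc finger gene, was counted at 1658, 1523 and 1745 CPM. Meg3, a maternally expressed non-coding RNA, was counted at 658, 577 and 826 CPM, Rian of the same cluster at 417, 362 and 351 CPM and Dlk1, the protein-coding gene beside them, at 11, 4 and 4 counts. Kcnq1ot1, an antisense RNA within Kcnq1, was counted at 523, 290 and 392 CPM, against 1.05, 0.179 and 3.31 CPM for Kcnq1. The sources used here do not say whether counting used the strand, so sense and antisense pairs are uncertain. Xist was counted at 2.7, 3.16 and 2.46 CPM, and the Y-linked genes Eif2s3y and Ddx3y at 78.4, 76 and 39 CPM and at 61, 51.8 and 43.9 CPM.

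The labels call the cells β cells, and the defining β-cell markers stood at high levels with the exception of Mafa. Markers of the other islet cells were present as well. Gcg, the glucagon gene of α cells, was counted at 682, 1453 and 1346 CPM, Pyy at 102, 190 and 183 CPM, Ppy, the hormone of pancreatic polypeptide cells, at 50.7, 157 and 89.9 CPM and Sst, the hormone of δ cells, at 71.7, 44.2 and 148 CPM. Gcg, Pyy and Ppy were lowest in pool 1. The α-cell factor Irx2 stood low, at 33, 3 and 3 counts. The α-cell list summed to 1573, 2414 and 2046 CPM with 7 of 14 genes at 10 CPM or more, and the list of δ, polypeptide and ε cells to 327, 505 and 557 CPM with 4 of 12.

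The marker lists of cells outside the islet summed to few counts. The acinar list summed to 258, 265 and 217 CPM, including Bhlha15 (102 mean CPM), which is also a gene of the lineage list above, and Ctrb1 at 85.9, 56.4 and 53.7 CPM, while Amy2a5 and Ptf1a had no count. The duct list summed to 371, 433 and 506 CPM, led by Krt18 at 99.8, 152 and 171 CPM, while Krt19 had 1, 4 and 1 counts and Sox9 1, 58 and 1 counts. The endothelial list summed to 163, 139 and 87.1 CPM, the stromal list to 84.8, 61.7 and 66.5 CPM and the immune list to 93.8, 57.4 and 52.4 CPM. Kdr was counted at 18.1, 14.9 and 8.02 CPM and Cd74 at 26.2, 17.1 and 13.3 CPM, both highest in pool 1. Pdgfra had 1, 0 and 0 counts and Cd3d, Cd8a and Ms4a1 had none. In bulk RNA fewer cells of a type and less RNA per cell cannot be told apart.

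Against counting error alone most genes varied between the pools. A chi-square test of the 3 libraries called 12245 of 13508 genes (90.6%) at a Benjamini-Hochberg adjusted p under 0.05, a comparison of these libraries. The relative spread was smaller at higher levels, and the median coefficient of variation was 70.3% under 1 CPM, 38.2% at 1 to 10, 19.5% at 10 to 100, 14.8% at 100 to 1000 and 13.5% above. A second test therefore asked which genes varied more than others of their level, by setting each gene's spread in edgeR's quasi-likelihood fit against the fitted trend. That test called 12 of 13508 genes (0.0888%) at an adjusted p under 0.05, and 639 at an unadjusted p under 0.05.

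**Figure D3:**
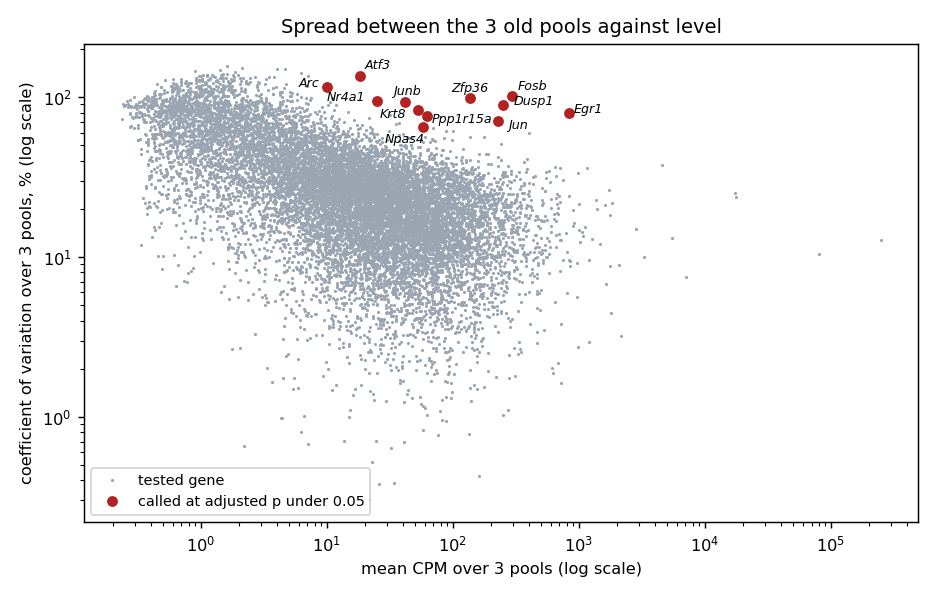
Coefficient of variation over the 3 old pools (%, log scale) against mean CPM (log scale) for 13508 tested genes, with the 12 called genes in red and named. The spread is smaller at higher levels, and the called genes lie at the upper edge between about 10 CPM (Arc) and 827 CPM (Egr1).

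The called genes were mostly immediate-early genes, which cells transcribe within minutes of a stimulus, before new protein is made. Of 30 tested genes of the immediate-early list 11 were called, and the remaining called gene was Krt8. With TMM factors, 11 of the 12 stood high in pool 3 and Npas4 stood low in pool 2. In mm9 Fosb lies at chr7:19888045-19895394, Dusp1 at chr17:26642536-26645417, Atf3 at chr1:192994176-193007212, Zfp36 at chr7:29161803-29164247 (all minus strand) and Nr4a1 at chr15:101097277-101105225 (plus strand). The list was drawn up with these results known, so its count is a description.

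Many immediate-early promoters hold the cyclic AMP response element TGACGTCA, its 5-base core TGACG, or the CArG box bound by serum response factor. The 250 bases before the start of 5 of the called genes are shown because these letters can be seen in them (RefSeq, GRCm38.p6). Capitals mark TGACG, or CGTCA where the core lies on the other strand, the full TGACGTCA, and in Zfp36 the CArG box. In each line the bases run 5′ to 3′ in the direction of the gene.
Fosb (chr7:19310046-19310295, minus strand): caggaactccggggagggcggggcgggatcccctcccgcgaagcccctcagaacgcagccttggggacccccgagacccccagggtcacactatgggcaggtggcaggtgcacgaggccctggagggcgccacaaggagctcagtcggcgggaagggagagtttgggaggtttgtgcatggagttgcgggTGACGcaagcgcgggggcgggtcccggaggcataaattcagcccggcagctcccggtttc
Dusp1 (chr17:26508473-26508722, minus strand): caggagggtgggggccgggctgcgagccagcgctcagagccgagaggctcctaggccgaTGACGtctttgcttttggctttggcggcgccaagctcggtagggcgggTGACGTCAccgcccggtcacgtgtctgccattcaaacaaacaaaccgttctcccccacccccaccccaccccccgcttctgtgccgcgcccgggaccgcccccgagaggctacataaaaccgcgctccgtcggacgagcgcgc
Atf3 (chr1:191183334-191183583, minus strand): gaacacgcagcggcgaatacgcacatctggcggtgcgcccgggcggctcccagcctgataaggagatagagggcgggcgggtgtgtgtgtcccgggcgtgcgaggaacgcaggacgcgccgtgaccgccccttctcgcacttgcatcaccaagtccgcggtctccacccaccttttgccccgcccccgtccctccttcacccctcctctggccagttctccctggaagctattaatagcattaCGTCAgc
Nr4a1 (chr15:101266596-101266845, plus strand): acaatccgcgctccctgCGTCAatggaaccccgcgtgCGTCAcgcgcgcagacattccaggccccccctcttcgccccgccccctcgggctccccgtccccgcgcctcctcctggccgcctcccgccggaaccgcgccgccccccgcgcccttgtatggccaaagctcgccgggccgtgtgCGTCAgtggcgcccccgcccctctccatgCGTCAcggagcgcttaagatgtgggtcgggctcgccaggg
Zfp36 (chr7:28379229-28379478, minus strand): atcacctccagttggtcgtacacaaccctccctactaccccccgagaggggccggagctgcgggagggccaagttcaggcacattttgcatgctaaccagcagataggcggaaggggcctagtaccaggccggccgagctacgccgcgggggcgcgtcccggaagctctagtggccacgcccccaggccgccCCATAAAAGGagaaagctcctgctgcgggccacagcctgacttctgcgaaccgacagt

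Both strands were searched for TGACG, a search that also finds TGACGTCA. Of the 10 called genes in the promoter table, 7 held TGACG and 2 held TGACGTCA, namely Dusp1 and Ppp1r15a. Among all 32851 promoters of this length in the table, 17.8% held TGACG, 1.55% TGACGTCA and 1.47% the CArG box. Among the 15409 matched genes, with 1 promoter each, these shares were 21, 2.1 and 1.33%. In the level classes of the called genes, 10 to 100 and 100 to 1000 CPM, 30.1 and 30.9% held TGACG. For TGACGTCA the shares there were 3.11 and 3.36%, and for the CArG box 1.15 and 0.961%. The CArG box was found in Zfp36 alone of the 10. Such matches are descriptions of the letters in these windows.

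Among the transcription factors, Fosb, a partner in the AP-1 complex, had the smallest adjusted p, at 106, 133 and 683 CPM with TMM factors, a 6.4-fold span (adjusted p = 0.000807, edgeR). Egr1, a zinc finger factor induced by glucose and calcium, was counted at 410, 451 and 1703 (adjusted p = 0.00345, edgeR). Jun and Junb, further AP-1 subunits, were counted at 128, 136 and 447 and at 16.8, 20.5 and 93.4 TMM-scaled CPM (adjusted p = 0.0275 and 0.0158, edgeR). In each of these genes pools 1 and 2 lay close together and pool 3 stood 3.49-fold (Jun) to 6.4-fold (Fosb) above the lower of them. Atf3, a stress-induced repressor, had a wider span at a lower level, at 5.48, 2.2 and 50 TMM-scaled CPM (adjusted p = 0.00164, edgeR). Its span was 18.7-fold, and all fold spans here were computed after a small constant was added to each value. Nr4a1, an orphan nuclear receptor, was counted at 13.2, 8.88 and 55.6 TMM-scaled CPM (adjusted p = 0.0465, edgeR). Npas4, a factor induced by calcium entry in neurons and β cells, followed another order, with 57.3, 18.8 and 101 TMM-scaled CPM (adjusted p = 0.0489, edgeR).

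The others act on RNA, kinases or translation. Zfp36, which binds and destabilises AU-rich messenger RNA, was counted at 61.8, 53.7 and 315 TMM-scaled CPM (adjusted p = 0.00145, edgeR). Dusp1, a phosphatase that switches off MAP kinases, was counted at 119, 115 and 546 (adjusted p = 0.00164, edgeR). Ppp1r15a, or GADD34, a phosphatase subunit that restores translation after stress, was counted at 27.4, 40.2 and 125 (adjusted p = 0.0411, edgeR). Arc, known from neurons, was counted at 5.59, 1.13 and 24.7 (adjusted p = 0.0489, edgeR). Krt8, a keratin of simple epithelia, was counted at 28.3, 24.9 and 110 (adjusted p = 0.0314, edgeR), while its partner Krt18 was counted at 99.8, 152 and 171 on column totals and was not called. Of the 13 tested duct markers, 4 were highest in pool 3 with TMM factors, Krt8 and Krt18 among them. This stands beside 4891 of all 13508 tested genes. Those not highest there include Spp1 at 12.4, 14.2 and 6.79 CPM and Cftr at 17, 10.1 and 13 CPM, and Krt19 was near 0. The 5 called genes Zfp36, Dusp1, Ppp1r15a, Arc and Krt8 all stood highest in pool 3.

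The immediate-early genes that were not called mostly stood in the same order. Of the 30 tested genes of the list, 25 were highest in pool 3 on column totals, with TMM factors and with RLE size factors, beside 4891 of all 13508 tested genes with TMM factors. The exceptions were Crem, Ier5, Gadd45a, Gadd45b and Sik1. Fos was counted at 220, 291 and 723 TMM-scaled CPM (adjusted p = 0.059, edgeR). Klf6 was counted at 32.8, 27.6 and 65.9 CPM, Ier2 at 24.4, 25.8 and 62.8 CPM and Per1 at 46.5, 45 and 106 CPM. Egr3 had 0, 0 and 24 counts and Egr2 0, 0 and 18 counts, both below the filter, and Egr4 and Dusp2 had none. The median log2 level of pool 3 over the mean of pools 1 and 2 was 1.38 for the list with TMM factors and 1.23 on column totals, beside -0.01 and -0.16 for all tested genes.

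**Figure D4:**
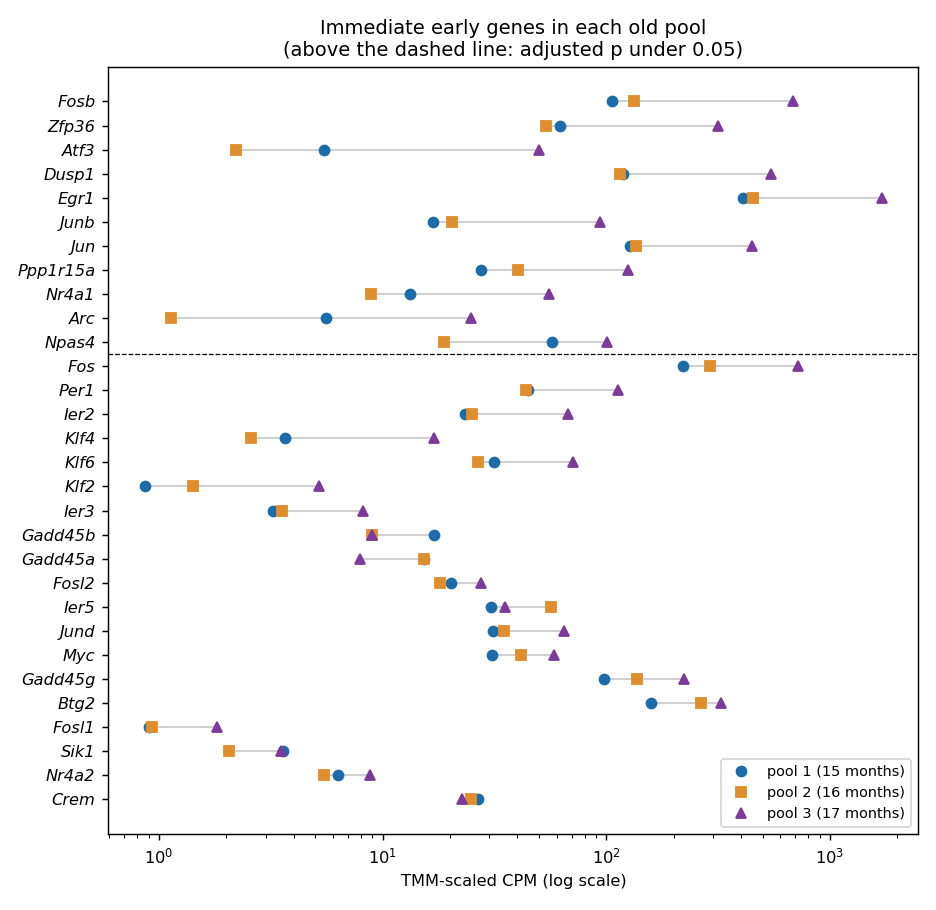
TMM-scaled CPM (log scale) of the immediate-early genes in each of the 3 old pools, 1 row per gene. The points of pool 3 lie to the right of the others for 25 of 30 tested genes, for instance Fosb at 683 against 106 and 133.

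These calls rested on pool 3: without it 0 of 12972 genes were called by edgeR (559 at an unadjusted p under 0.05), whereas 16 were called without pool 1 and 11 without pool 2. With column totals in place of TMM factors 5 genes were called, all among the 12, and DESeq2 marked 24 genes as dispersion outliers, among them the 12. Pool 3 also held the fewest counts, the largest share of Ins1 and the lowest summed endothelial, acinar and immune markers. With TMM factors, 14 of 19 tested endothelial genes were lowest there, beside 4892 of all 13508 tested genes. On column totals Cdh5 stood at 11.6, 8.79 and 8.36 CPM. The summed markers of δ, polypeptide and ε cells and of duct cells were the highest in pool 3. That order rests on Sst in the former list (71.7, 44.2 and 148 CPM) and on Krt8 in the latter (29.5, 25.7 and 103 CPM). The part of these features of pool 3 in the result was not tested. Inducible heat-shock genes were not called, but Hspa1a at 4.8, 3.37 and 6.54 CPM and Dnajb1 at 41.6, 33.4 and 64.1 CPM were also highest in pool 3.

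Outside the immediate-early list, the genes next in order of adjusted p did not pass the threshold. Sst stood at 68.9, 43 and 158 TMM-scaled CPM (adjusted p = 0.118, edgeR), highest in pool 3. Of the 10 tested genes of the δ, polypeptide and ε list, 6 were highest in pool 3 with TMM factors. This stands beside 4891 of all 13508 tested genes. Those not highest there include the δ-cell factor Hhex at 2.62, 0.358 and 0.849 CPM and Rbp4 at 5.81, 12.7 and 8.02 CPM. Lin9, a subunit of a cell cycle complex, was high in pool 2 alone at 2.52, 17.6 and 0.637, and Ttll6, a tubulin ligase, in pool 1 alone at 15.8, 0.897 and 1.5 TMM-scaled CPM (adjusted p = 0.118 and 0.134, edgeR). Ext2, which builds heparan sulfate, was counted at 46.2, 39 and 129, Nfkbiz, an inhibitor of NF-κB, at 88.7, 88.5 and 240, Fam18b at 86.8, 162 and 48.4 and Lrrc8c at 33.9, 61.7 and 13.5 TMM-scaled CPM.

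The spread of genes of β-cell identity and secretion was set beside that of all genes at these levels. Median coefficients of variation were 14.7% for tested granule cargo, 15.5% for prohormone processing, 15.3% for lineage factors, 15.5% for chaperones of the endoplasmic reticulum and 11.9% for cytosolic ribosomal proteins, beside 14.8% for all genes at 100 to 1000 CPM and 19.5% at 10 to 100. The immediate-early genes had a median of 55.2%. Of these lists, 1 lineage factor was called, Nr4a1, which is also an immediate-early gene. On column totals, among genes of at least 100 CPM, Pdxdc1 had the lowest coefficient of variation at 0.428%, with 162, 161 and 160 CPM. It was followed by Npc2, which carries cholesterol out of lysosomes, at 134, 136 and 134 CPM, and by Ubap2l, Ankrd17, Ogdhl, Pcdhga3, Dad1, Snd1, Pcdhgb6 and Ptprn2, all at most 1.63%. Dad1 is a subunit of the oligosaccharyltransferase of the endoplasmic reticulum and Ptprn2 a granule membrane protein. This order depends on the scaling: with TMM factors all 10 genes stood highest in pool 3, with Pdxdc1 at 155, 156 and 172 TMM-scaled CPM.

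Other readouts of old β cells were set against the level classes at gene starts. DNA methylation, H3K27me3, the mark of Polycomb repression, and H3K4me1, a mark of enhancers and promoter flanks, had 1 old sample each, from C57Bl6 mice labelled 16 to 18 months. For H3K27me3 in old cells the design text mentions 2 replicas, and it is unknown whether 1 or both are behind the region list. The design text gives 18 to 22 months for the old bisulfite pool. The bisulfite table held 19569012 CpGs with a median coverage of 18 reads, and 72.4% of calls were methylated. With 1 sample there is no replicate check, and the intervals below cover the spread over genes only.

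Methylation of gene starts differed along the ranking. The median methylation within 500 bp of the start was 74.1% for genes with no count (95% order-statistic interval 73.2 to 75, 3323 genes) and 56.8% for genes under 1 CPM (54.4 to 59.4). It was 7.23% at 1 to 10 CPM (6.95 to 7.51), 5.11% at 10 to 100, 4.59% at 100 to 1000 and 5.45% at 1000 CPM and more (3.69 to 7.02, 31 genes). The step thus lay near 1 CPM, and from 10 CPM up at least 83.9% of genes in each class were under 10%. Ins1 stood at 8.05% (174 calls at 5 CpGs), Iapp at 9.22% (141 calls), G6pc2 at 5.45% and Chga at 2.71%. Of the 31 genes of the top class, those above 10% were Gcg at 57.6% (245 calls), the imprinted Peg3 at 46.3%, Ins2 at 23.5% (153 calls), Prlr at 19.2% and Enpp2 at 12.7%. Marker lists of other cell types differed, with medians of 79.4% for immune, 77.2% for blood and adipocyte, 74.6% for acinar and 60.7% for endothelial genes, but 23.5% for stromal, 22.7% for glial, 11.9% for duct, 11.2% for δ, polypeptide and ε and 7.5% for α-cell genes. The median was 4.26% for chaperones of the endoplasmic reticulum.

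H3K27me3 regions lay within 1000 bp of the start in 49.5% of genes with no count and in 62.4% of those under 1 CPM, the highest share. The share was 43% at 1 to 10 CPM, 23.6% at 10 to 100, 16.8% at 100 to 1000 and 22.6% at 1000 CPM and more (exact Clopper-Pearson 95% interval 9.59 to 41.1). The 7 genes of the highest class with such a region were Ins1, Ins2, Chga, Maged1, Gcg, Abcc8 and Glp1r. H3K4me1 peaks within 1000 bp were found in 6.02, 20.2, 45.2, 44.4, 23.9 and 9.68% of genes from the lowest to the highest class, so the middle classes had the most. A mark and a level measured on different mice and on mixed cells do not show that both lie on the same allele or in the same cell.

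**Figure D5:**
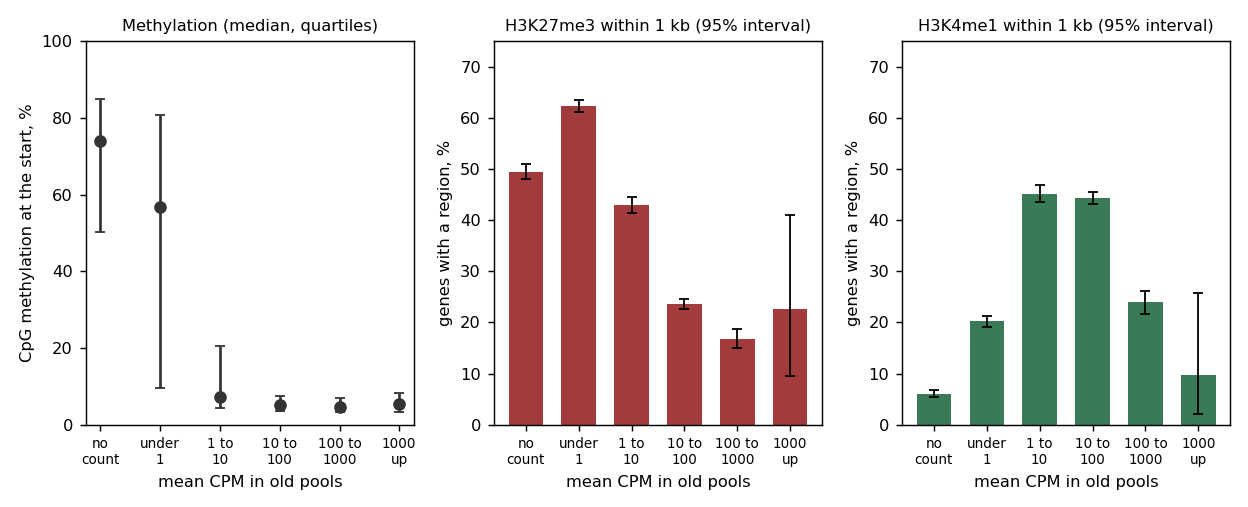
Old β-cell chromatin at gene starts by class of mean CPM. The methylation panel gives the median CpG methylation (%), with bars from the lower to the upper quartile over genes. The other panels give the share of genes (%) with an H3K27me3 region or an H3K4me1 peak within 1000 bp. Their error bars are 95% intervals. Methylation drops from 56.8 to 7.23% between the classes under 1 and 1 to 10 CPM, and H3K4me1 is most frequent at 1 to 100 CPM.

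The genes that varied between pools were also examined at their starts. The start of each of the 12 called genes was under 10% methylated, beside 85.6% of all genes at 10 to 100 CPM and 87.1% at 100 to 1000 CPM, from 2.93% at Fosb (2735 calls) to 9.94% at Jun (2293 calls), and all but Krt8 had an H3K27me3 region. Of 35 immediate-early genes, 28 had an H3K27me3 region near the start and 15 an H3K4me1 peak, with a median methylation of 4.9%. Over all genes, the H3K27me3 shares were 62.4, 43, 23.6 and 16.8% from the class under 1 CPM to that of 100 to 1000 CPM. For H3K4me1 they were 20.2, 45.2, 44.4 and 23.9%. Of the lineage factors, 10 of 30 had an H3K27me3 region, among them Pdx1 (2.44% methylated), while Nkx6-1 had none. Mafa, listed near 1 CPM, was 4.59% methylated and had both marks. Of 20 disallowed genes 18 had an H3K27me3 region, with a median methylation of 5.88%, so their starts were unmethylated on the median, unlike those of the acinar and immune lists.

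A few highly counted genes had a methylated annotated start. Ckap5, a microtubule regulator at 129 mean CPM, was 100% methylated (69 calls at 4 CpGs), Lrrc55 (259 CPM) 95.9%, Neb (724 CPM) 95.3%, Spnb2 (517 CPM) 94.3% and Macf1 (559 CPM) 92.4%. In the class of 100 to 1000 CPM 4.34% of genes were over 50% methylated. The start used is that of the transcript with the most counts, and starts of other transcripts of these genes were not analysed here.

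Promoter sequence differed along the ranking as well. For 15409 genes matched to RefSeq promoters (GRCm38.p6, 250 bases before the start), the median observed over expected CpG ratio was 0.16 with no count, 0.3 under 1 CPM, 0.63 at 1 to 10, 0.76 at 10 to 100 and 0.79 at 100 to 1000 CPM. The TATA motif TATAAA was held by 26.9% of genes with no count and by 5.19% at 100 to 1000 CPM. The core TGACG went the other way, from 9.09% with no count to 30.9% at 100 to 1000 CPM, and it was in 10 of 22 promoters at 1000 CPM and more. Its share in the immediate-early list was 15 of 27, or 55.6%. Median GC content went from 43.6 to 62.8% over the same classes, and motif shares move with base composition.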

How the data were processed

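RNA of sorted β cells was described in 3 pools of old mice, grouped by their labels. The deposited table holds read counts per RefSeq transcript. For the series, the submitters' processing notes list edgeR, HOMER, STAR, Bowtie 0.12.7 and CASAVA 1.8.2 with no roles, and the build mm9, used for all gene positions. The transcript with the highest total stood for each gene, and CPM is relative to the column total over genes. The other 5 per-sample columns of the deposited tables were not used.

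In a second deposited table the authors had divided by transcript length, and its values serve as a signal whose scale is unknown. The ratio of count to signal gave a relative length in pools 1 and 2 (r = 0.99997 over 14051 transcripts), and genes with a length held 99.962% of counts. The deposited CpG table lists per site the fraction of methylated calls and the coverage, and starts needed 3 CpGs of at least 5 reads. Per the file headers, H3K4me1 peaks were called by HOMER against an input library. The list of H3K27me3 regions names no caller, and only positions were used, not the deposited score of peaks and regions.

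Variation between pools was tested in edgeR 4.0.16 (R 4.3.3, limma 3.58.1) by a robust quasi-likelihood fit with an intercept only and TMM factors, over genes with at least 10 counts in at least 2 pools. The ratio of each gene's dispersion to the trend was set against the F distribution, adjusted by Benjamini-Hochberg and called under 0.05. The chi-square test compared counts with equal levels at TMM-scaled totals. The code was tested on simulated data. Floors of 3 counts cover counting error only. Alternatives were RLE factors, no TMM factors, no filter, robust off, limma, DESeq2 1.42.0, each pool left out, other transcripts, denominators, coverage minimums and windows.

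The members and lists were chosen with earlier results of these data known. The rule for named genes took the 25 genes with the highest mean CPM, the 10 with the highest per-length level, up to 4 members of each list with the highest mean CPM and members at 0 counts, the 20 genes with the smallest adjusted p at 5 CPM or more, up to 4 called members of each list, the 10 of at least 100 CPM with the lowest coefficient of variation, and a set of hormone, lineage, cell cycle and cell type marker genes. Other genes were named after their values were seen. Promoters come from RefSeq (GRCm38.p6), matched by symbol.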

Additional observations from a re-analysis of the deposited data

How the results depend on the processing

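No paired analysis was possible because no groups are compared here and the test uses old pools alone. The number of genes called beyond the abundance trend was 12, and 5 with column totals, 24 by DESeq2 and 0 to 16 with each pool left out (0 without pool 3). With RLE factors 10, with limma 14, and with no filter or robust off 8 each were called. The count beyond counting error stayed within 9002 and 14590 over its alternatives. Between 10792 and 12245 genes reached the minimum in every pool at 2 and 0.5 CPM, and 34.4% for Ins1, Ins2 and Iapp moved between 32.4 and 36.2%. With Ins1 and Ins2 left out of the denominator, 41 of 42 list shares moved by more than their SD, and with the least counted transcript 3. Median methylation from the lowest to the highest class was 69.6, 39.1, 6.02, 4.44, 4.17 and 3.5% within 200 bp of the start, and 53.9% under 1 CPM with a minimum of 10 reads. Over the start itself H3K27me3 lay in 47.5, 60.1, 40.4 and 21.4% of the 4 lowest classes. Within 10 kb H3K4me1 lay near 16.2, 38.9, 67, 73, 66.8 and 54.8% of genes. A wider window finds more peaks by construction, and the cause of the other shifts was not tested. Depth limits statements on genes near 3 counts, such as Cdkn2a in pools 2 and 3. With 3 pools the test has 2 residual degrees of freedom a gene and rests on the trend, and 1 chromatin sample a mark gives no replicate check.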
